A study of Homo sapiens with 2 samples.

Results

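RAB GTPases were examined as a gene family in PLC-8024 hepatocellular carcinoma cells with and without overexpressed GDF1. Members were the genes whose symbol consists of RAB, a number and at most 1 letter from A to F. The rule found 63 of the 58174 genes listed in both deposited tables. Of these, 46 reached 1 TPM (a transcript abundance that accounts for gene length and is set to the same total in every library) in either library, out of 14929 such genes, and 17 had less in both. The rule used the symbol and this minimum level, and not the difference between the libraries.

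PLC-8024 is an established human HCC cell line. The line carrying a control vector is PLC-8024-CTR, here the control cells, and the line carrying a GDF1 construct delivered by lentivirus and kept by puromycin selection is PLC-8024-GDF1, here the GDF1 cells. Polyadenylated RNA was sequenced in paired ends on an Illumina HiSeq instrument, with 1 library for each condition, and no time point or dose is given in the labels. The comparison asks how the transcriptome of the same cell line differs once GDF1, a secreted ligand of the TGF-β superfamily, is overexpressed.

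Rab proteins form the largest branch of the Ras superfamily of small GTPases and give each membrane compartment of the cell its identity. A guanine nucleotide exchange factor (GEF) loads a Rab with GTP on its membrane, the GTP-bound form recruits effectors such as tethers and motors, and a GTPase-activating protein (GAP) ends the cycle, after which GDP dissociation inhibitor returns the prenylated Rab to the cytosol. In hepatocytes, which secrete plasma proteins and take up lipoproteins at polarised surfaces, these proteins sort the secretory, endocytic and transcytotic routes.

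Every value of a gene comes from 1 library per condition. No difference therefore has a replicate check, no p-value or standard error is given, and all comparisons describe these 2 libraries. TPM keeps no sequencing depth, so the depth cannot be read from these tables and no counting interval is given. A listed value of 0.0001 stands in place of 0. Each change is the log2 ratio of TPM + 1 in GDF1 cells to TPM + 1 in control cells, a scale on which the added 1 makes the change of low genes smaller, and a gene past 2-fold has a change above 1 or below -1. In bulk RNA, a lower share of cells with a transcript and less of it per cell cannot be told apart.

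GDF1 itself was listed at 2.096 TPM in control and 4.64 TPM in GDF1 cells, and CERS1, whose exons hold the GDF1 coding bases, at 13.3 and 9612 TPM. By its own value GDF1 stayed within 2-fold on the scale with the added 1, with a change of 0.87. As a plain TPM ratio it was higher over 2-fold. How reads of the construct were divided between GDF1 and CERS1 was not tested. Of 8 hepatocyte markers, 8 had at least 1 TPM in control and 7 in GDF1 cells, and their summed level was 8496 and 6159 TPM. The largest part of that sum was SERPINA1, at 5308 and 2915 TPM. KRT8 (1424 and 1777 TPM) and KRT18 (1005 and 1224 TPM) were higher in GDF1 cells, and the other hepatocyte markers were lower. Of the 3 leukocyte markers PTPRC was listed at 0.0001 TPM in both libraries, and the list's sum of 33.1 and 13.2 TPM came almost wholly from CD68, which encodes a lysosomal membrane protein. None of 3 fibroblast markers and only PECAM1 of 3 endothelial markers reached 1 TPM in either library, with COL1A2 and VWF at 0.0001 TPM in both. The part of these marker levels in the RAB values was not tested.

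As a family, RAB transcripts took nearly the same share of the transcriptome in both libraries, while single members moved far in both directions. The 63 genes summed to 1703 TPM in control and 1658 TPM in GDF1 cells, which is 0.170% and 0.166% of all TPM. RAB6A, RAB43 and RAB24 were higher over 2-fold in GDF1 cells, and RAB5A, RAB8A, RAB29, RAB5C, RAB28, RAB27A and RAB11A were lower over 2-fold. The remaining 36 lay within 2-fold.

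The 3 higher members were 6.52% of the 46, against 4.82% of all 14929 genes. The 7 lower members were 15.2%, against 9.61% of all genes. Lower calls thus outnumbered higher ones among RAB genes and in the whole table. The median change was -0.17 over the 46 members and -0.20 over all genes, and 50% of the members lay between -0.65 and 0.26, against -0.59 and 0.22 for all genes. The GDF1 library was also rescaled so that, by plain TPM ratio, the median gene with at least 5 TPM in either library did not move. After rescaling, 6.97% of all genes were higher and 6.85% lower, and 4 RAB genes were higher and 6 lower. The median change over all 14929 genes was then -0.02. The plot of the cumulative distribution sets the family beside all genes.

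**Figure D1:**
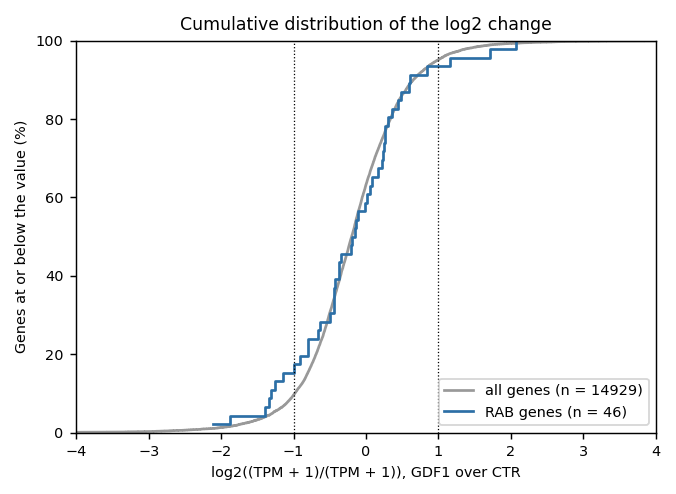
Cumulative share of genes (y axis, %) at or below each log2 change (x axis, GDF1 over control) for 46 RAB genes and all 14929 genes that reached 1 TPM in either library. The curves run together around their medians of -0.17 and -0.20, and the RAB curve lies above that of all genes near -1, where 15.2% of RAB genes and 9.61% of all genes are lower, 14 genes of the 14929 lying outside the axis.

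RAB transcript abundance was dominated by a few members. RAB1B alone supplied 29.5% of the RAB TPM in control and 28.0% in GDF1 cells. Together with RAB11B and RAB13 it supplied 48.8% and 51.6%. Without RAB1B the sum was 1200 TPM in control and 1193 TPM in GDF1 cells. The median level of the 46 members was 12.1 TPM in control and 8.84 TPM in GDF1 cells. Of the 8 members with at least 50 TPM in either library, 1 was higher over 2-fold and 1 lower, with a median change of 0.00. Of the 38 others, 2 were higher and 6 lower, with a median change of -0.27. Over all 14929 genes, 4.82% were higher and 9.61% lower, with a median change of -0.20. The same split by level was not made over all genes.

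**Figure D2:**
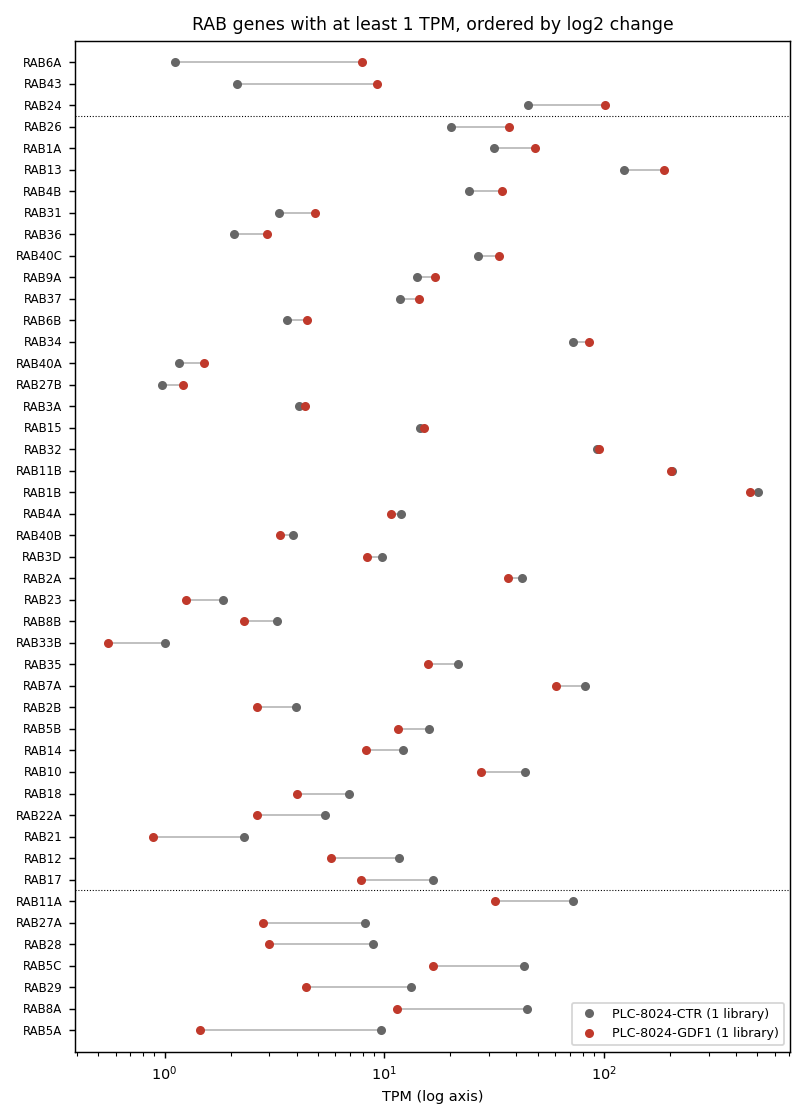
TPM of each of the 46 RAB genes (x axis, log scale) in control (grey) and GDF1 (red) cells, 1 library each, ordered by the log2 change, with dotted lines at the limits of 2-fold. RAB6A spans 1.11 to 7.92 TPM at the top and RAB5A 9.62 to 1.46 TPM at the bottom, and the abundant RAB1B and RAB11B hardly moved.

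Rabs of the endoplasmic reticulum and Golgi included RAB6A and RAB43, both higher over 2-fold, and no gene lower over 2-fold. On the scale with the added 1, the call of RAB43 did not hold once its read-through gene was added. Of 14 listed genes, 9 had at least 1 TPM. Of these, 2 were higher over 2-fold (22.2%) and none was lower, against 4.82% and 9.61% of all genes. The median change was -0.11, with the sign turned by rescaling (0.09) and by the GC trend (0.27). RAB6A governs traffic from endosomes to the Golgi and from the Golgi to the surface. It was listed at 1.11 TPM in control, close to the minimum level, and 7.92 TPM in GDF1 cells. Its log2 change was 2.08, and it went from rank 44 to rank 26 among the 63 RAB genes by TPM. RAB6A (ENSG00000175582) lies on the minus strand of GRCh37 at chr11:73386683-73472182 and overlaps no other gene with at least 1 TPM. Of the 100-base windows of its longest transcript, 5.32% also occur in the near-identical copies RAB6C and RAB6D. RAB6C was listed at 0.024 TPM in control and 0.0001 TPM in GDF1 cells.

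RAB6B, the closest paralog of RAB6A among the expressed members, was listed at 3.62 and 4.47 TPM, a change of 0.25. The order of the pair was therefore opposite in the libraries. RAB6A made up 23.6% of their summed TPM in control, where both were under 5 TPM, and 63.9% in GDF1 cells. SRPRB on the opposite strand, at 46.0 and 55.7 TPM, shares 6.29% of the RAB6B exon bases. The part of SRPRB reads in the RAB6B values was not tested. The coding sequences of RAB6A and RAB6B are 78.5% identical. The stretches that encode the phosphate-binding loop, the part of every Rab that holds the nucleotide, are shown because they let the reads of paralogs be told apart. They are 60 coding bases of GRCh37 in which capitals mark the 11 positions that differ, spanning exons 1 and 2 on the minus strand of chr11:73441834-73471635 for RAB6A and of chr3:133583452-133614265 for RAB6B.
RAB6A: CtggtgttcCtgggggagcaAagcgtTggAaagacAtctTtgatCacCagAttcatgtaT
RAB6B: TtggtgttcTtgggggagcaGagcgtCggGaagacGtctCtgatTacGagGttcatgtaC

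RAB43, which acts between the endoplasmic reticulum and the Golgi, was listed at 2.15 TPM in control and 9.31 TPM in GDF1 cells, a log2 change of 1.71. RAB43 (ENSG00000172780) lies on the minus strand of GRCh37 at chr3:128806412-128841644. The read-through gene ISY1-RAB43 covers 79.3% of its exon bases on the same strand, so reads can be split between them. ISY1-RAB43 was listed at 2.09 TPM in control and 0.0001 TPM in GDF1 cells. Added together, they came to 4.23 and 9.31 TPM, a change of 0.98, just within 2-fold on the scale with the added 1. As a plain TPM ratio the sum was still higher over 2-fold.

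The other Golgi and endoplasmic reticulum Rabs stayed within 2-fold. RAB1B, which controls transport from the endoplasmic reticulum to the Golgi, was listed at 502.8 TPM in control and 464.3 TPM in GDF1 cells. Its paralog RAB1A had 31.6 and 48.7 TPM, a change of 0.61 against -0.11 for RAB1B, which was 0.09 after rescaling. The pair together came to 534.4 and 513.0 TPM, so the supply of this subfamily differed little between the libraries. On the opposite strand AP001107.2, at 30.2 and 38.3 TPM, shares 30.2% of the RAB1B exon bases. CEP68, at 3.38 and 3.97 TPM, shares 22.9% of those of RAB1A, also on the opposite strand. RAB2A, which acts in Golgi tethering, had 42.3 and 36.6 TPM. Its paralog RAB2B had 3.95 and 2.65 TPM. RAB18, found on lipid droplets and the endoplasmic reticulum, had 6.91 and 4.01 TPM, a change of -0.66. RAB33B, a Golgi Rab that binds the autophagy factor ATG16L1, was close to the minimum level at 1.01 and 0.55 TPM.

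Exocytic Rabs were split, with RAB8A and RAB27A lower over 2-fold and the abundant RAB13 higher within it. Of 13 listed genes, 10 had at least 1 TPM. None of these was higher over 2-fold and 2 were lower (20%), against 4.82% and 9.61% of all genes. The median change was -0.06, or 0.12 after rescaling and 0.10 with the GC trend subtracted. RAB8A, which drives polarised exocytosis and the growth of primary cilia, was listed at 44.6 TPM in control and 11.4 TPM in GDF1 cells. Its log2 change was -1.88, and it went from rank 9 to rank 21. RAB8A (ENSG00000167461) lies on the plus strand of GRCh37 at chr19:16222699-16245044 and shares 4.20% of its exon bases with HSH2D on the same strand, which was listed at 5.67 and 3.31 TPM.

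RAB8B was much the scarcer paralog, at 3.26 and 2.30 TPM, a change of -0.37. The RAB8 pair therefore summed to 47.9 TPM in control and 13.7 TPM in GDF1 cells, with a change of the sum of -1.73. Their coding sequences are 76.4% identical, and the stretch encoding the phosphate-binding loop in exon 1 is nearly the same in both. It is shown on the plus strand of GRCh37, at chr19:16222742-16222801 for RAB8A and chr15:63481854-63481913 for RAB8B, with the 7 differing positions in capitals.
RAB8A: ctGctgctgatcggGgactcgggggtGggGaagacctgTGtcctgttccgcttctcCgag
RAB8B: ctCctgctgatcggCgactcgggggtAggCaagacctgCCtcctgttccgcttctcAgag

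RAB27A, which docks multivesicular bodies and secretory granules at the plasma membrane, was listed at 8.16 TPM in control and 2.82 TPM in GDF1 cells, a change of -1.26, or -0.78 with the GC trend subtracted. RAB27A (ENSG00000069974) lies on the minus strand of GRCh37 at chr15:55495164-55611311, and 1.61% of its exon bases are shared with PIGBOS1 on the same strand. RAB27B, with a coding sequence 66.1% identical, had 0.97 and 1.22 TPM. RAB27A thus remained the more abundant of the pair in both libraries.

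Among the other exocytic members, the most abundant was RAB13, known from the assembly of tight junctions, at 123.3 TPM in control and 187.3 TPM in GDF1 cells, a change of 0.60. RAB10, which brings GLUT4 vesicles and other cargo to the surface, had 43.8 and 27.7 TPM, a change of -0.64. RAB26, of secretory granules and autophagy, had 20.1 and 36.9 TPM, a change of 0.85. RAB26 was thus the highest of the members that stayed within 2-fold, and it passed 2-fold, at 1.05, once the GDF1 library was rescaled to the median gene. RAB37, also of secretory granules, had 11.8 and 14.3 TPM. RAB3D, of exocrine granules, had 9.77 and 8.38 TPM, and RAB3A, of synaptic vesicles, had 4.09 and 4.37 TPM. These last members differed by less than 0.30 on the log2 scale. RAB3D shares 3.28% of its exon bases with TMEM205 on the same strand, at 323.7 and 409.4 TPM. MPV17L2 on the opposite strand, at 60.1 and 49.2 TPM, shares 9.24% of those of RAB3A.

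Early endosome Rabs had the lowest level in GDF1 cells relative to control cells among the role lists with more than 2 members. Of 7 listed genes, 6 had at least 1 TPM, and 5 of these were below 0, against 9443 of 14929 among all genes. Of the 6, 2 were lower over 2-fold (33.3%) and none was higher, against 9.61% and 4.82% of all genes. Against -0.20 for all genes, the list had a median change of -0.81. That median was -0.68 after the GDF1 library was rescaled to the median gene and -0.34 once the GC trend of all protein-coding genes was subtracted. The list summed to 80.0 TPM in control and 38.2 TPM in GDF1 cells, a change of -1.05. RAB5A, the regulator of early endosome fusion, was listed at 9.62 TPM in control and 1.46 TPM in GDF1 cells. Its log2 change of -2.11 was the lowest of all RAB genes, and it went from rank 28 to rank 42. RAB5A (ENSG00000144566) lies on the plus strand of GRCh37 at chr3:19988589-20026667 and overlaps no other gene with at least 1 TPM.

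RAB5C, which shares the endosome fusion function, was listed at 43.4 TPM in control and 16.6 TPM in GDF1 cells, a change of -1.33. RAB5C (ENSG00000108774) lies on the minus strand of GRCh37 at chr17:40276996-40307062, and 28.8% of its exon bases are shared with a same-strand gene, AC099811.2, that had 1.04 and 1.17 TPM. RAB5B, the remaining paralog, had 16.0 and 11.5 TPM, a change of -0.44. The 3 RAB5 genes together came to 69.0 TPM in control and 29.6 TPM in GDF1 cells, a change of -1.19, so no paralog was higher where the others were lower. RAB5C was the most abundant of them in both libraries, with 62.8% and 56.1% of the sum.

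The coding sequences of the RAB5 genes are 72.4% to 76.5% identical. The stretches that encode their phosphate-binding loop lie in exon 2 of each gene, on GRCh37 at chr3:19992457-19992516 (plus strand) for RAB5A, chr12:56380811-56380870 (plus strand) for RAB5B and chr17:40282392-40282451 (minus strand) for RAB5C. They are shown because RAB5A and RAB5C passed 2-fold and RAB5B did not, with capitals at the 19 positions where at least 1 paralog differs.
RAB5A: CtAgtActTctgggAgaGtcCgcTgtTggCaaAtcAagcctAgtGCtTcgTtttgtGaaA
RAB5B: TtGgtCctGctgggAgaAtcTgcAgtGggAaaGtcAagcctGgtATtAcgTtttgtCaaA
RAB5C: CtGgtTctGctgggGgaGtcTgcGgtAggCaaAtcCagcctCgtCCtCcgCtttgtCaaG

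The other early endosome members were low. RAB22A, which acts in endosomal recycling, had 5.37 TPM in control and 2.64 TPM in GDF1 cells, a change of -0.80. RAB21, known for the traffic of integrins, had 2.30 and 0.89 TPM, a change of -0.81. As a plain TPM ratio without the added 1, RAB21 was 2.59-fold lower and RAB22A 2.03-fold lower. RAB31, the closest paralog of RAB22A with 68.6% coding identity, had 3.32 and 4.85 TPM, a change of 0.44, and was the only one of the 6 above 0.

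Of the recycling Rabs, RAB11A alone passed 2-fold. Of 10 listed genes, 9 had at least 1 TPM, and 7 of these were below 0 (5 after rescaling), against 9443 of 14929 among all genes. Of the 9, 1 was lower over 2-fold (11.1%) and none was higher, against 9.61% and 4.82% of all genes. The median change was -0.43, or -0.24 after rescaling and -0.10 with the GC trend subtracted. RAB11A, the Rab of the recycling endosome, was listed at 72.2 TPM in control and 32.0 TPM in GDF1 cells. Its log2 change was -1.15, or -0.95 after the GDF1 library was rescaled to the median gene and -0.67 with the GC trend subtracted, both within 2-fold. RAB11A (ENSG00000103769) lies on the plus strand of GRCh37 at chr15:66018392-66184327 and overlaps DENND4A, which is on the opposite strand, without sharing an exon base.

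RAB11B was the more abundant paralog and hardly differed, at 204.9 TPM in control and 203.2 TPM in GDF1 cells, a change of -0.01 that was 0.19 after rescaling. RAB11A made up 26.1% of the pair's TPM in control and 13.6% in GDF1 cells, and the pair together came to 277.2 and 235.2 TPM. Their coding sequences are 72.5% identical, and the stretches of 60 bases around the phosphate-binding loop differ at 18 positions, in capitals. They span exons 1 and 2 on the plus strand of GRCh37, at chr15:66161963-66169728 for RAB11A and chr19:8455340-8464805 for RAB11B.
RAB11A: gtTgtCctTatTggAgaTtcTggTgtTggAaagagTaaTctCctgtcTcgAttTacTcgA
RAB11B: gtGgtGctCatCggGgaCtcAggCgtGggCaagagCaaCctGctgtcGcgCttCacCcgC

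RAB17, an epithelial Rab of transcytosis, was listed at 16.6 TPM in control and 7.84 TPM in GDF1 cells, a change that lay just within 2-fold at -0.996. RAB12, which steers transferrin receptor to degradation, had 11.7 and 5.71 TPM, a change of -0.92. As plain ratios these were 2.12-fold and 2.04-fold lower. RAB35, of fast recycling and the apical surface, had 21.7 and 15.8 TPM, and RAB14, which moves between the Golgi and endosomes, had 12.1 and 8.28 TPM, with changes of -0.43 and -0.50. RAB4A and RAB4B, of rapid recycling from early endosomes, differed from each other, with 12.0 and 10.7 TPM for RAB4A and 24.2 and 34.2 TPM for RAB4B. RAB4B shares 27.3% of its exon bases with the read-through gene RAB4B-EGLN2, and its change of 0.48 became 0.40 with read-through genes added. RAB15 had 14.5 and 15.1 TPM.

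**Figure D3:**
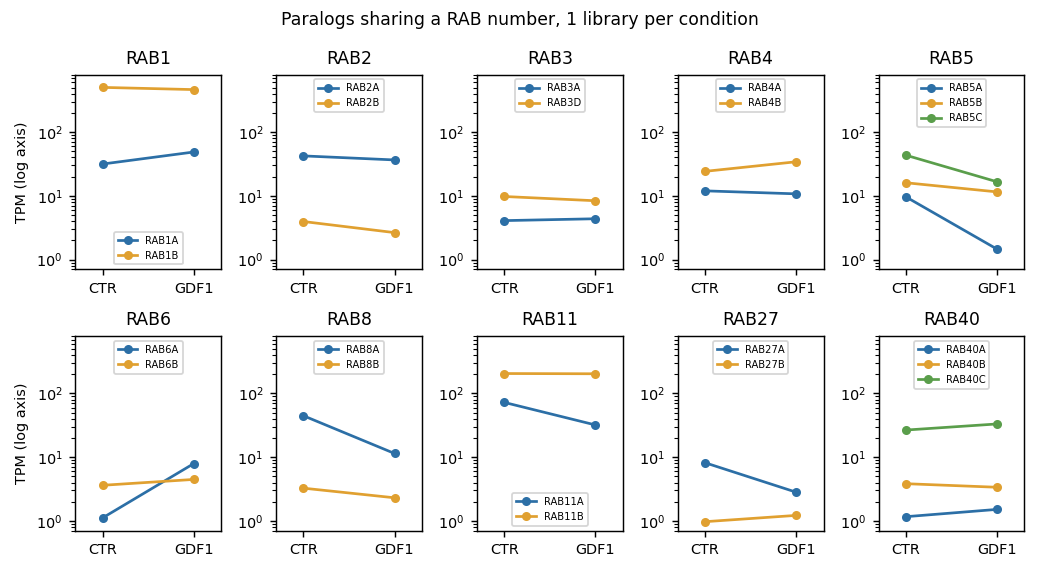
TPM (y axis, log scale) in control and GDF1 cells of the expressed RAB genes that share a number, 1 library per condition, with a line for each gene. The lines of RAB6A and RAB6B cross as RAB6A goes from 1.11 to 7.92 TPM, all 3 RAB5 genes slope down, and RAB11A ends lower beside the level line of RAB11B.

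Rabs of late endosomes, lysosomes and autophagy had a median change of 0.24, with RAB24 and RAB29 past 2-fold in opposite directions. Of 12 listed genes, 7 had at least 1 TPM, and 5 of these were above 0, against 5486 of 14929 among all genes. Of the 7, 1 was higher over 2-fold (14.3%) and 1 lower (14.3%), against 4.82% and 9.61% of all genes. The median of 0.24 was 0.44 after rescaling and 0.28 with the GC trend subtracted. RAB24, an atypical Rab linked to autophagy, was listed at 45.1 TPM in control and 101.6 TPM in GDF1 cells, a change of 1.16. RAB24 (ENSG00000169228) lies on the minus strand of GRCh37 at chr5:176728199-176730745 and shares 44.8% of its exon bases with MXD3 on the same strand. MXD3 was listed at 93.2 and 105.9 TPM, and the 2 genes together came to 138.3 and 207.5 TPM, a change of 0.58.

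RAB29, a partner of the kinase LRRK2 at the Golgi and at lysosomes, was listed at 13.2 TPM in control and 4.42 TPM in GDF1 cells, a change of -1.39. RAB29 (ENSG00000117280) lies on the minus strand of GRCh37 at chr1:205737114-205744610. RAB32, its closest expressed paralog and a Rab of lysosome-related organelles, was far more abundant and hardly differed, at 93.5 and 94.6 TPM. RAB7A, which brings late endosomes to lysosomes, had 82.1 and 60.3 TPM, a change of -0.44. RAB34, of lysosome positioning and ciliogenesis, had 72.1 and 85.2 TPM, and the related RAB36 had 2.06 and 2.92 TPM. RAB9A, which acts between late endosomes and the Golgi, had 14.1 and 17.1 TPM. RAB29 and RAB7A were thus the members of the list below 0.

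Of the 2 cilium Rabs, RAB28 was lower over 2-fold. RAB28, mutated in cone-rod dystrophy, was listed at 8.89 TPM in control and 2.99 TPM in GDF1 cells, a change of -1.31, or -0.88 with the GC trend subtracted. RAB28 (ENSG00000157869) lies on the minus strand of GRCh37 at chr4:13362978-13485989. RAB23, an antagonist of Hedgehog signalling, had 1.85 and 1.25 TPM. BAG2 on the opposite strand, at 4.19 and 2.25 TPM, shares 57.8% of the RAB23 exon bases. The RAB40 genes, which carry a SOCS box that recruits a ubiquitin ligase, all stayed within 2-fold, with 26.6 and 33.2 TPM for RAB40C, 3.83 and 3.37 TPM for RAB40B and 1.16 and 1.51 TPM for RAB40A. RAB40A shares 7.37% of its 100-base windows with RAB40AL.

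**Figure D4:**
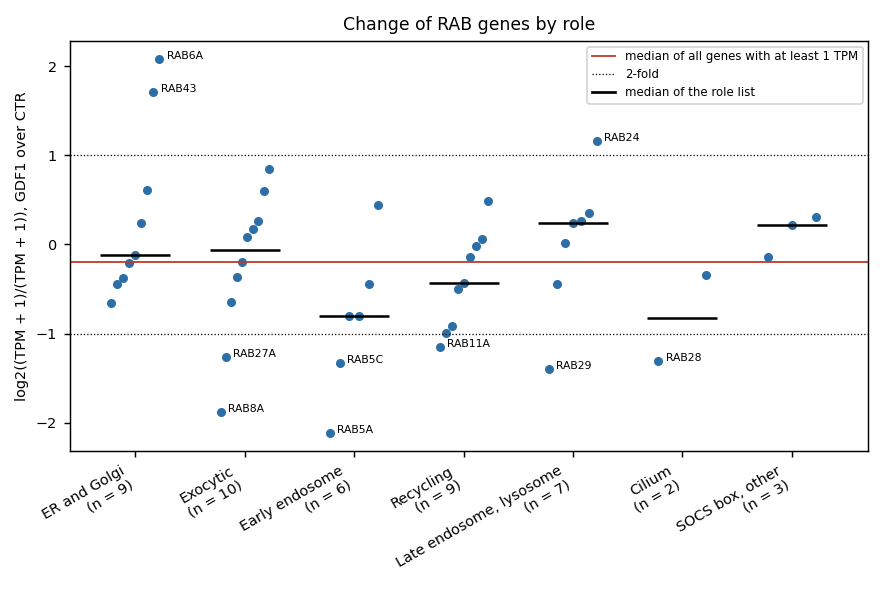
Log2 change (y axis, GDF1 over control) of each expressed RAB gene (points) by role, with the median of each list (black bar), the median of all genes (red line, -0.20) and the limits of 2-fold (dotted). RAB5A and RAB5C lie at the bottom of the early endosome list, whose median is -0.81, and RAB6A and RAB43 stand above the other Golgi and endoplasmic reticulum members.

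The 17 members under 1 TPM in both libraries were RAB1C, RAB3B, RAB3C, RAB6C, RAB7B, RAB9B, RAB19, RAB20, RAB25, RAB30, RAB33A, RAB38, RAB39A, RAB39B, RAB41, RAB42 and RAB44. RAB9B, RAB19, RAB42 and RAB44 were listed at 0.0001 TPM in both. RAB1C is annotated as a processed pseudogene. At the minimum of 1 TPM, the members just inside were RAB33B, at 1.01 and 0.55 TPM, and RAB27B, at 0.97 and 1.22 TPM, and those just outside were RAB3B, at 0.998 and 0.893 TPM, and RAB30, at 0.388 and 0.948 TPM. By its definition the filter removes only genes under 1 TPM in both libraries.

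The machinery that acts on Rab proteins was examined in 126 listed genes, of which 111 reached 1 TPM in either library. Of these, 2 were higher over 2-fold (1.80%) and 9 were lower (8.11%), against 4.82% and 9.61% of all genes, and their median change was -0.24. All 8 genes for GDP dissociation inhibitors, escort proteins and prenylation stayed within 2-fold. GDI2, which extracts Rabs from membranes, had 69.9 TPM in control and 52.6 TPM in GDF1 cells. The subunits of the Rab geranylgeranyl transferase differed, with 36.9 and 36.6 TPM for RABGGTA and 141.6 and 76.4 TPM for RABGGTB, a change of -0.88 for the latter. The escort protein genes CHM and CHML were low, at 2.96 and 1.14 TPM and at 1.23 and 0.39 TPM.

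Among 35 expressed GEF genes, 1 was higher over 2-fold (2.86%) and 4 were lower (11.4%), against 4.82% and 9.61% of all genes. RABGEF1, an exchange factor for RAB5, was listed at 20.8 TPM in control and 3.47 TPM in GDF1 cells, a change of -2.29. The tables hold the symbol RABGEF1 under another identifier too, an overlapping read-through gene at 0.067 and 11.7 TPM, and both added came to 20.9 and 15.1 TPM, a change of -0.44. The lower value under the first identifier thus stood beside a higher value under the other. The 4 lower GEF genes and the 9 lower regulators count RABGEF1 by the first identifier alone. HPS4, a subunit of the exchange factor for RAB32 and RAB38, had 12.7 and 2.48 TPM, a change of -1.98. RAB3GAP1, which with its partner activates RAB18, had 19.9 and 8.27 TPM, a change of -1.18. DENND1A, an exchange factor for RAB35, had 48.1 and 21.6 TPM, a change of -1.12. TRAPPC9, of a Golgi exchange complex, was the higher one, at 9.11 and 20.4 TPM, a change of 1.08.

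Among 30 expressed GAP genes, none was higher over 2-fold and 3 were lower (10%), against 4.82% and 9.61% of all genes. TBC1D10A, which acts on RAB27A and RAB35, had 12.2 TPM in control and 2.76 TPM in GDF1 cells, a change of -1.81. TBC1D8 had 49.4 and 18.7 TPM, a change of -1.35, and TBC1D14, which binds RAB11 and acts in autophagy, had 16.7 and 7.55 TPM, a change of -1.05. Among 38 effectors, 1 was higher (2.63%) and 2 were lower (5.26%), against the same shares of all genes. GOLGA2, which encodes the cis-Golgi matrix protein GM130 that RAB1 recruits, had 43.5 and 19.99 TPM, a change of -1.08. The other 2, SYTL4 (0.777 and 4.78 TPM) and the motor gene MYO5A (4.51 and 0.721 TPM), were under 5 TPM in both libraries.

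Several features that the selection did not use were compared over the members. The GC content of the longest transcript and the log2 change had a Spearman rho of 0.36 over the 46 RAB genes and 0.33 over 11792 protein-coding genes. The points share 1 library pair and genes are not independent replicates, so these are descriptions. Among genes with a GC content up to 44.3%, 4 of 20 RAB genes (20%) were lower over 2-fold, against 13.8% of protein-coding genes. In the same range 1 RAB gene (5%) was higher, against 2.04%. The median change there was -0.41 for RAB genes, against -0.46 for all protein-coding genes. Among those from 54.9%, 1 of 13 RAB genes was lower (7.69%) and 2 were higher (15.4%), against 6.28% and 6.64% of protein-coding genes. The median was 0.24, against 0.00. In both sets the median was lower at low GC content than at high. Once the GC trend of all protein-coding genes was subtracted, 4 of 46 RAB genes were higher and 4 lower. The shares of protein-coding genes were then 5.61% and 5.81%. RAB6A, at 41.8% GC, and RAB5A, at 41.9% GC, lay close together in GC content and at opposite ends of the change. Whether GC content has a part in the calls was not tested.

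**Figure D5:**
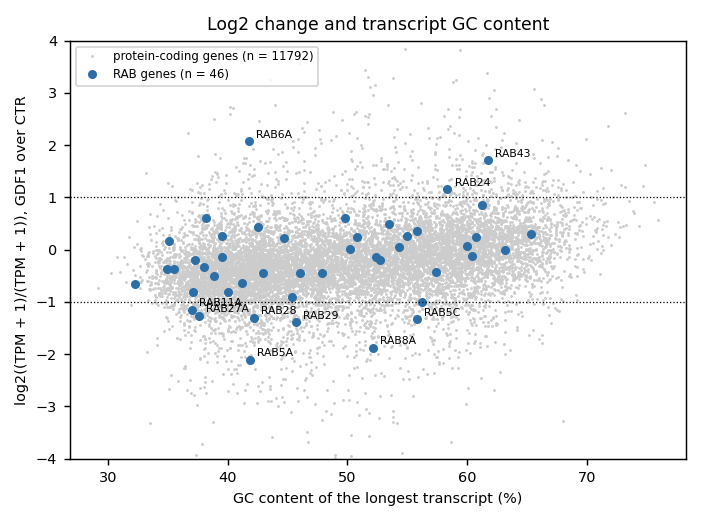
Log2 change (y axis, GDF1 over control) against the GC content of the longest transcript (x axis, %) for 46 RAB genes (blue) and 11792 protein-coding genes (grey), 9 of which lie outside the axis, with dotted lines at 2-fold. Both sets rise gently to the right (Spearman rho of 0.36 and 0.33), and RAB6A and RAB5A stand at 2.08 and -2.11 with nearly equal GC content.

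Overlap with other genes was uneven among the called members. Of the 46 expressed RAB genes, 8 overlap a gene of 1 TPM or more on the same strand, 13 overlap such a gene on the opposite strand, with some overlapping both ways, and 27 overlap none. RAB43, RAB24, RAB8A, RAB5C and RAB27A, which were past 2-fold, are among the 8. The part of their exon bases shared on the same strand ran from 1.61% for RAB27A to 79.3% for RAB43. Strand would not separate genes on the same strand. The sources used here do not state that counting used strand. Reads from exon bases shared on either strand may therefore have been assigned to either gene. Between RAB genes themselves such sharing was small, since 0 of 1035 pairs of expressed members shared a 100-base window of coding sequence, and the longest identical run was 55 bases, between RAB40B and RAB40C.

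Promoter windows of RefSeq, the 250 bases before the gene start on GRCh38.p14, were held for 38 of the 46 expressed members. They are rich in G and C, with a median GC content of 66.2%, against 57.6% over 27305 windows of all genes. Here and below, those 27305 windows were not limited to genes with at least 1 TPM. The values over all expressed genes were not computed, so the sets compared are unlike in expression. A GC box, GGGCGG on either strand, was present in 33 of 38 (86.8%), against 42.2% of all windows. An E box, CACGTG, was in 5 of 38 (13.2%), against 6.46%. GTCTG, the letters of a short SMAD repeat, was on either strand of 36.8%, against 37.9%, and the palindrome GTCTAGAC in none of 38, against 0.183%.

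The windows of the 3 members with the changes farthest from 0 are shown, in the direction of transcription and with GC boxes in capitals. They lie at chr11:73761075-73761324 on the minus strand for RAB6A, at chr3:19946847-19947096 on the plus strand for RAB5A and at chr19:16111639-16111888 on the plus strand for RAB8A, all on GRCh38.p14. RAB6A holds no GC box, RAB5A holds 1 and RAB8A holds 2. A match or its absence describes these windows only.
RAB6A: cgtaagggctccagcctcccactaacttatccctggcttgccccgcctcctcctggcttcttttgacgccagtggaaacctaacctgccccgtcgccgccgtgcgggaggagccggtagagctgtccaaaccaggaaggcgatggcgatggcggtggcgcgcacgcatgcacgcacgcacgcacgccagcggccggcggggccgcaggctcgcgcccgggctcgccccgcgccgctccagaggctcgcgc
RAB5A: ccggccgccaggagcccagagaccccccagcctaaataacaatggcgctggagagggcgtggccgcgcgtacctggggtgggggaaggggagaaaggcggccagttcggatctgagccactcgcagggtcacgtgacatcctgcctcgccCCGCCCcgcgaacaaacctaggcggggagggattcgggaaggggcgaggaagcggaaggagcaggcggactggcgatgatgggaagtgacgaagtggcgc
RAB8A: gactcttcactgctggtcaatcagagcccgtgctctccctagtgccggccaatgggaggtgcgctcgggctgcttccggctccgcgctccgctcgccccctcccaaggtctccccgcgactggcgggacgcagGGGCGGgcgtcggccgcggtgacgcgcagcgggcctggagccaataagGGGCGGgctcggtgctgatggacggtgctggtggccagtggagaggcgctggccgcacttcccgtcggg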

How the data were processed

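Gene expression was measured by sequencing of mRNA, with 1 library for each of the control and GDF1 cells. Groups were taken from the genotype in the labels. The authors checked reads with FastQC 0.11.2, filtered them with Trimmomatic 0.36, aligned them to hg19 with HISAT2 2.1.0 and deposited TPM values from StringTie 1.3.3b, with 1 value per gene and library. Their methods name RefSeq gene models while the deposited tables list Ensembl identifiers. TPM has nearly the same sum in each library, so the depth cannot be read from these tables and the precision of a value cannot be given.

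The tables were joined on the gene identifier. The log2 change with a pseudocount of 1 was computed for genes that reached 1 TPM in any library, and calls used a fold threshold of 2. The members and gene lists were chosen with earlier results of these data known. Every expressed RAB gene was named, and regulators were named when past 2-fold with at least 5 TPM in either library, with GDI2, CHM, CHML, RABGGTA and RABGGTB always. The values of 1 further gene that this rule names are not reported here. SYTL4, MYO5A, PIGBOS1 and the other overlapping genes were chosen after their values were seen. Paralogs were compared by coding sequence, aligned end to end over the canonical transcripts, since protein sequences were not used here. DENND2B was found under its older symbol ST5. Positions, overlaps, GC content and coding sequences came from GENCODE v44 on GRCh37, the same build as hg19, which held 62 of the 63 RAB genes and lacked RAB7B. Promoter windows came from RefSeq on GRCh38.p14, and where a gene had several the window farthest upstream was used. The alternatives were a pseudocount of 0.1, a plain TPM ratio, a minimum of 5 TPM or none, rescaling to the median ratio, subtraction of a lowess GC trend with a span of 0.3, overlapping genes left out and read-through genes added. Alignments used Biopython 1.88, the lowess trend statsmodels 0.14.6 and the figures matplotlib 3.10.9, with numpy 2.4.6, scipy 1.17.1 and pandas 2.3.3 under Python 3.11.15, and the calculations were tested on simulated data.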

Additional observations from a re-analysis of the deposited data

How the results depend on the processing

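With 1 library per condition no call has a replicate check, and TPM keeps no depth that would show which low values are imprecise. The count of lower RAB genes was 11 of 46 with a plain TPM ratio, which added RAB12, RAB17, RAB21 and RAB22A. The share of all genes lower was then 16.3%, against 9.61% in the main setting. The RAB count was 4 with the GC trend subtracted, where 5.81% of protein-coding genes were lower. In that setting RAB11A, RAB27A and RAB28 no longer passed 2-fold (-0.67, -0.78 and -0.88) and RAB1A was higher over 2-fold at 1.09. Without members that overlap an expressed gene on the same strand, 1 RAB gene was higher and 4 were lower, because RAB24, RAB43, RAB5C, RAB8A and RAB27A were removed. The median change of the members turned to 0.0067 with the GDF1 library rescaled by a factor of 1.15 and to 0.10 with the GC trend subtracted. The change of the summed TPM, -0.04, turned to 0.17 with the rescaling. Of 111 regulators (78 at a minimum of 5 TPM), those higher over 2-fold numbered 4 with a pseudocount of 0.1 and 4 with a plain ratio. They numbered 1 at the minimum of 5 TPM and 5 with the GC trend subtracted. In the same order, 7.82%, 8.23% and 4.89% of all genes and 5.61% of protein-coding genes were higher. Regulators lower over 2-fold numbered 16 with a pseudocount of 0.1, 17 with a plain ratio and 5 after rescaling. The shares of all genes lower were 15.5%, 16.3% and 6.85% in these settings. RAB6A, RAB5A and RAB29 stayed past 2-fold in the same direction under each alternative run, and RAB8A and RAB5C under each that did not leave them out. No paired analysis was possible because there is only 1 library of either condition. The causes of these changes were not tested.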
